A study of Mus musculus with 6 samples.

Results

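The genes described here build the meiotic chromosome axis, the synaptonemal complex and the machinery of meiotic recombination. They were taken by symbol from a list of 37 genes in 6 functions, and all 37 had a row in the deposited table of 38715 genes. The table held RPKM values (reads scaled to gene length and to library size) of whole mouse testis for 3 libraries titled Control and 3 titled Middle. The submitters' design text speaks of controls and of mice exposed to MES. Middle is read as the exposed group, since the titles hold only these names. The sources used here give neither the compound's full name nor its dose, route, the mice's strain or their age at sampling, although the series title speaks of exposure in early life. Whether each library came from its own mouse is not stated either, so the tests measure the spread between these libraries, which may be technical. Reads summed over genes came to 38820385 to 58389391 per library.

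In the first meiotic prophase each chromosome folds into loops along a protein axis built on cohesin, and SPO11 cuts the DNA of the loops at many sites. The cut ends invade the homologous chromosome with the help of the recombinase DMC1, and the synaptonemal complex then zips the paired axes together while a few of the exchanges mature into crossovers. Telomeres anchored in the nuclear envelope move the chromosomes so that homologs find each other. These genes are transcribed mainly in spermatocytes, and loss of most of them in mice arrests spermatogenesis in meiosis.

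No gene of the set passed the test for a difference between Middle and Control. Of the 37 genes, 33 reached a mean of 1 RPKM in at least 1 group and were tested among 15040 genes on the log2(RPKM + 1) scale, where folds of low genes come out too small. Of these 33 tested genes 0 had an adjusted p under 0.05 (limma, Benjamini-Hochberg), against 0.0532% of all genes tested (0.00665% higher and 0.0465% lower in Middle). The smallest adjusted p among them was 0.180 (limma). An unadjusted p under 0.05 was reached by 7 of the 33, which is 21.2% against 20.7% of all genes. Of the 7, 3 were higher and 4 lower in Middle, beside 11.7% and 9.02% of all genes. A test on the reads recovered from the RPKM values also called 0 of its 36 genes of this set, against 0.0419% of all genes in that test (limma-voom). There 9 of the 36 had an unadjusted p under 0.05, against 17.9% of all genes.

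The median log2 difference of the 33 genes was 0.01, beside 0.027 over all genes tested, with 17 above 0 and 16 below. The split was 15 above and 18 below under median-of-ratios scaling, and 13 above and 20 below under upper-quartile scaling. For 8 of the 33 genes Middle and Control libraries occupied separate ranges, which is 24.2%, against 29.3% of all genes tested. The share was 17.9% of all genes in the higher and 11.4% in the lower direction. Of those 8, Rec8, Mnd1, Brme1 and Hsf2bp lay higher in every Middle library and Sycp1, Smc1b, Hormad1 and Tex15 lay lower. The share without overlap was thus no larger than in the background. In whole testis, fewer spermatocytes and less RNA in each spermatocyte cannot be told apart.

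**Figure D1:**
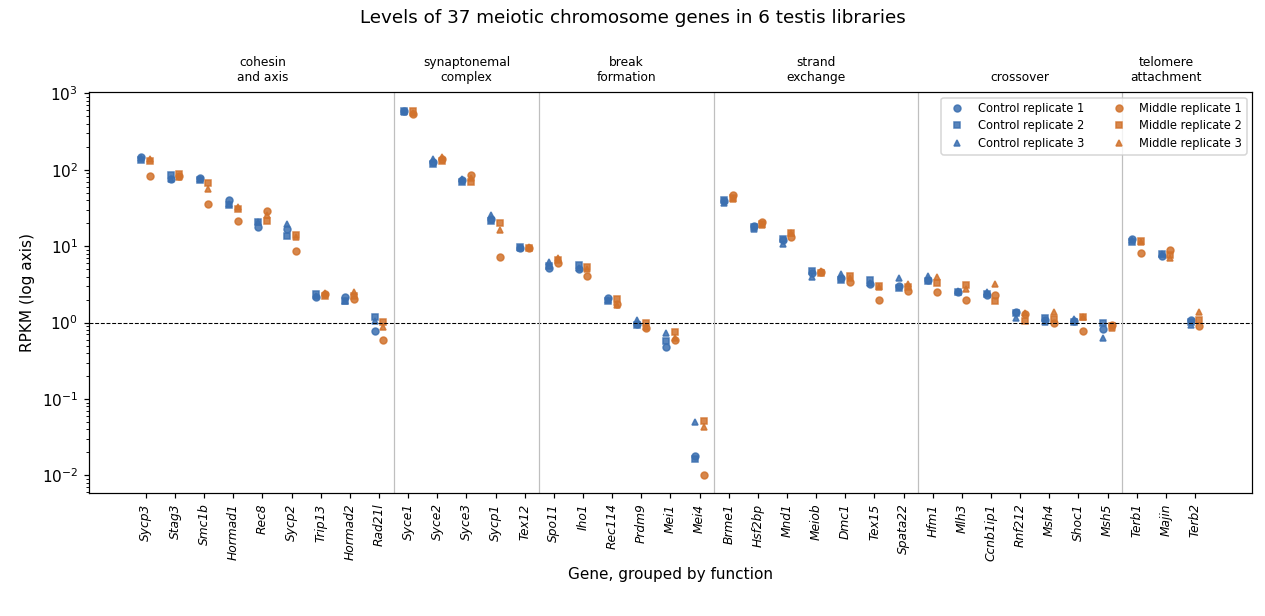
RPKM of each of the 37 genes on a log axis, grouped by function, with 1 point per library (blue for Control, orange for Middle, a shape for each replicate). The dashed line marks 1 RPKM, the filter for testing; Syce1 lies highest near 600 RPKM and Mei4 lowest, at 0.052 RPKM or less.

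**Figure D2:**
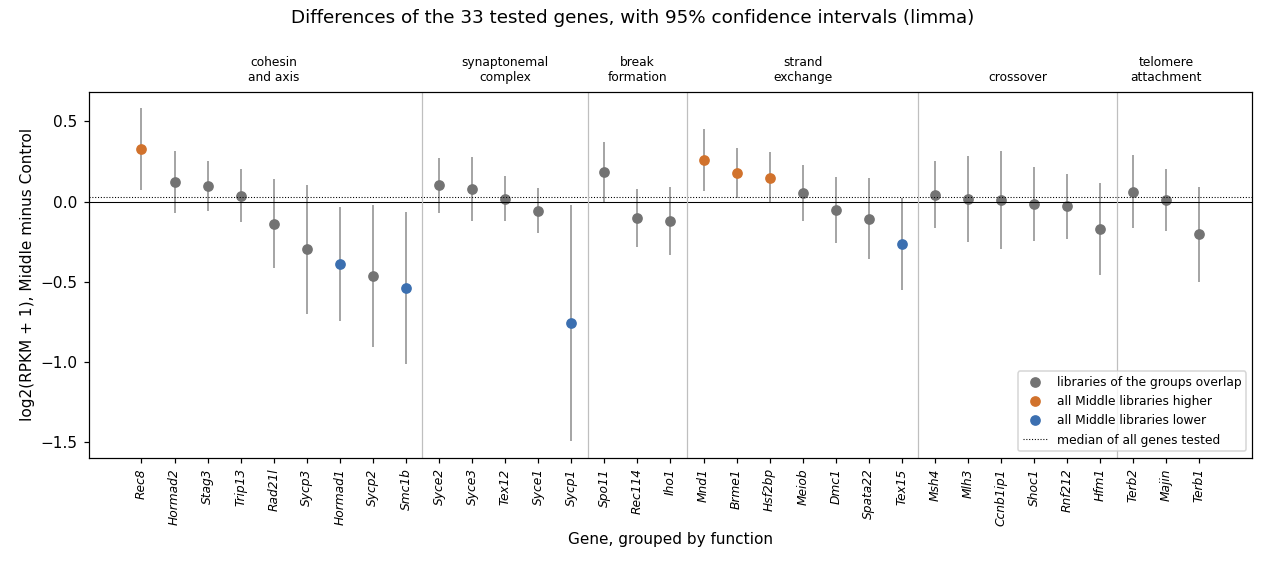
Difference in log2(RPKM + 1), Middle minus Control, of the 33 tested genes with 95% confidence intervals from limma, which are not adjusted for multiple tests. Orange and blue points are the 8 genes whose groups do not overlap, and the widest interval belongs to Sycp1.

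Meiotic cohesin replaces subunits of the mitotic ring with REC8 or RAD21L, SMC1B and STAG3, and SYCP2, SYCP3, HORMAD1 and HORMAD2 assemble on it. All 9 genes of this function were tested, 4 lay above 0 and 5 below, and 1 of the 5, Rad21l, passed the filter through its Control mean alone.

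Rec8 (chromosome 14, 55855494 to 55862852, build GRCm39 as all positions of genes here), the kleisin that closes the meiotic ring, was at 17.99, 20.5 and 20.9 RPKM in Control replicates 1 to 3. It was at 28.5, 21.4 and 25.7 RPKM in Middle replicates 1 to 3. Each Middle library lay above each Control library, the nearest pair being Control replicate 3 and Middle replicate 2. The means were 19.8 ± 1.59 and 25.2 ± 3.58 RPKM (SD, n = 3 each), with a log2 difference of 0.33 (SE 0.11, adjusted p = 0.187, limma).

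Smc1b (chromosome 15, 84948890 to 85016165), the ring's meiotic SMC subunit, lay lower in every Middle library. It was at 77.5, 72.7 and 75.2 RPKM in Control and at 35.5, 67.98 and 55.99 in Middle. The Control libraries lay close together, whereas Middle replicate 1 lay far below the other Middle libraries. The log2 difference was -0.54 (SE 0.20, adjusted p = 0.210, limma), and -0.28 without Middle replicate 1.

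Hormad1 (chromosome 3, 95466988 to 95494982), whose product marks axes that are not yet synapsed, had the same shape. Its levels were 39.8, 35.2 and 35.3 RPKM in the Control libraries against 21.1, 31.1 and 32.6 in the Middle ones, with Middle replicate 1 lowest and no overlap of the groups. The log2 difference was -0.39 (SE 0.15, adjusted p = 0.220, limma) and -0.20 without Middle replicate 1.

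The most abundant axis gene was Sycp3, which with SYCP2 forms the fibres of the lateral element. Sycp3 was at 149, 133 and 143 RPKM in the Control libraries against 84.1, 129 and 139.6 in the Middle ones. Middle replicate 1 lay far below the other 5 libraries, and Middle replicate 3 lay inside the Control range. The log2 difference of -0.30 (adjusted p = 0.343, limma) was -0.07 without Middle replicate 1. Exons of the neighbour Chpt1 on the other strand cover 52.2% of the exon bases of Sycp3. The counting is not stated to use strand, so reads from the shared part cannot be assigned. Chpt1 itself was at 13.2 ± 0.68 RPKM in the Control libraries against 11.7 ± 1.86 in the Middle ones (SD, n = 3 each).

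Sycp2 was at 16.8, 13.7 and 19.7 RPKM in the Control libraries against 8.58, 14.1 and 13.1 in the Middle ones, again lowest in Middle replicate 1, and the groups overlapped. Its log2 difference was -0.46 (adjusted p = 0.228, limma), and -0.26 without that library. Rad21l, the second meiotic kleisin, was the lowest axis gene, at 0.778, 1.20 and 1.06 RPKM in the Control libraries against 0.598, 1.008 and 0.887 in the Middle ones. Since its Control mean alone let it into the test, its direction is no evidence. The other axis genes lay closer together: Stag3 was at 78.9 ± 4.95 and 84.4 ± 3.21 RPKM, and Hormad2 at 2.004 ± 0.149 and 2.27 ± 0.235 (SD, n = 3 each). Trip13, the ATPase that strips HORMADs from synapsed axes, was at 2.28 ± 0.101 and 2.36 ± 0.118 RPKM (SD, n = 3 each), and the 95% interval of its log2 difference ran from -0.12 to 0.20 (limma).

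Ratios of partner genes within a library remove the library's scaling, and the pairs given here were chosen after the values were seen. Hormad1 stood to Hormad2 at 18.3, 18.3 and 18.5 in the Control libraries and at 10.3, 13.9 and 12.95 in the Middle libraries, without overlap. Smc1b stood to its mitotic counterpart Smc1a at 22.3 to 23.8 in Control and 10.8 to 17.5 in Middle. Stag3 stood to Stag2 at 16.998 to 18.4 in Control and 19.3 to 29.9 in Middle, so the ratios of meiotic to mitotic subunits did not point 1 way. Rec8 was less abundant than Rad21 in every library, at a ratio of 0.46 to 0.57, and this ratio overlapped between the groups. Partners differ in GC content (35.8% for Hormad1, 43.9% for Hormad2), a property that moved with the differences.

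The synaptonemal complex consists of SYCP1 filaments that span the gap between the axes and of the central element proteins SYCE1, SYCE2, SYCE3 and TEX12. All 5 genes were tested, and Sycp1 alone had an unadjusted p under 0.05 (limma). Sycp1 (chromosome 3, 102725815 to 102843416) was at 22.9997, 21.6 and 25.8 RPKM in the Control libraries against 7.13, 20.4 and 16.3 in the Middle ones. Every Middle library lay below every Control library, Middle replicate 2 only slightly and Middle replicate 1 by far. The means were 23.5 ± 2.15 and 14.6 ± 6.81 RPKM (SD, n = 3 each), a ratio of 0.623. The log2 difference of -0.76 had a 95% interval from -1.49 to -0.02 and an adjusted p of 0.234 (limma). Without Middle replicate 1 it was -0.34.

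The 4 central element genes did not differ between the groups beyond their spread. Syce1 was the most abundant of the 37 genes, at 596, 581 and 569 RPKM in the Control libraries against 531, 591 and 559.9 in the Middle ones. Syce2 was at 128, 120.2 and 138 RPKM in the Control libraries against 139, 130.1 and 146 in the Middle ones. Their groups overlapped, and the 95% intervals of the log2 differences ran from -0.20 to 0.08 for Syce1 and from -0.07 to 0.27 for Syce2 (limma).

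Syce3 was at 74.3, 69.5 and 76.95 RPKM in the Control libraries against 86.7, 70.2 and 77.3 in the Middle ones, with the highest value in Middle replicate 1. Tex12, the partner of SYCE2 in the central element, was at 9.35, 9.79 and 9.38 RPKM in the Control libraries against 9.44, 9.58 and 9.91 in the Middle ones. Its 6 libraries lay within 1 RPKM of each other, and the 95% interval of its log2 difference ran from -0.12 to 0.16 (limma). Sycp1 stood to Syce2, within a library, at 0.179 to 0.186 in Control and at 0.0514, 0.157 and 0.111 in Middle replicates 1 to 3.

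Genes of break formation were low. PRDM9 places the breaks by binding DNA and methylating the nearby histones, SPO11 cuts, and IHO1, MEI1, MEI4 and REC114 are needed for cutting. Of these 6 genes only Spo11, Iho1 and Rec114 reached the filter. Spo11 was at 5.26, 5.49 and 6.19 RPKM in the Control libraries against 6.04, 6.57 and 7.0001 in the Middle ones, the highest Control library lying above the lowest Middle library. Its log2 difference was 0.18 (SE 0.08, adjusted p = 0.256, limma). Iho1 was at 5.07, 5.63 and 5.16 RPKM in the Control libraries against 4.14, 5.27 and 4.97 in the Middle ones, and Rec114 at 2.09, 1.94 and 1.997 against 1.74, 2.01 and 1.68. Both overlapped between the groups, and exons of Nptn on the other strand cover 26.9% of the exon bases of Rec114.

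Prdm9 lay just under the filter, at 0.960, 0.922 and 1.09 RPKM in the Control libraries against 0.858, 0.990 and 0.872 in the Middle ones. Mei1 was at 0.481, 0.578 and 0.723 RPKM in the Control libraries against 0.588, 0.751 and 0.624 in the Middle ones. The values of both overlapped. Mei4 rested on 2 to 10 reads per library, at 0.0182, 0.0166 and 0.050 RPKM in the Control libraries against 0.0102, 0.0520 and 0.0430 in the Middle ones, too few to show any difference. These 3 genes were not tested.

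In strand exchange DMC1 coats the resected DNA ends and finds the homolog, MND1 aids it, BRME1 and HSF2BP form a complex that brings recombinases to the breaks through BRCA2, and MEIOB and SPATA22 bind the single strands. All 7 genes were tested, 4 lay above 0 and 3 below, and the median difference was 0.06. The groups did not overlap for 4 of the 7 (57.1%, against 29.3% of all genes tested), 3 of them higher and 1 lower in Middle. Mnd1 (chromosome 3, 83995240 to 84063093) was at 12.1, 12.6 and 10.7 RPKM in the Control libraries against 13.2, 14.8 and 14.8 in the Middle ones. Each Middle library lay above each Control library, the nearest pair being Control replicate 2 and Middle replicate 1. Its log2 difference of 0.26 (SE 0.08) had the smallest adjusted p of the 33 genes, 0.180 (limma), and was 0.31 without Middle replicate 1.

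Brme1 (chromosome 8, 84874654 to 84899219) was at 39.5, 40.2 and 37.2 RPKM in the Control libraries against 47.1, 43.4 and 42.001 in the Middle ones. Its partner Hsf2bp (chromosome 17, 32163743 to 32255323) was at 18.6, 18.1 and 16.6 against 20.9, 19.3 and 19.3 RPKM. Both were higher in all 3 Middle libraries, with log2 differences of 0.18 (SE 0.07) and 0.15 (SE 0.07) and adjusted p-values of 0.210 and 0.259 (limma). The level of Hsf2bp relative to Brme1 was nearly the same in the 6 libraries, at 0.444 to 0.471.

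Tex15 (chromosome 8, 34006766 to 34075610), needed to load recombinases on the breaks, was the one that lay lower. It was at 3.18, 3.57 and 3.32 RPKM in the Control libraries against 1.97, 3.05 and 2.97 in the Middle ones, lowest in Middle replicate 1. The log2 difference was -0.26 (SE 0.12, adjusted p = 0.266, limma) and -0.12 without that library. The recombinase gene Dmc1 itself was at 3.95 ± 0.388 RPKM in the Control libraries against 3.77 ± 0.336 in the Middle ones (SD, n = 3 each). Meiob was at 4.38 ± 0.353 and 4.58 ± 0.171 RPKM, and Spata22 at 3.22 ± 0.542 and 2.91 ± 0.305 (SD, n = 3 each). For Spata22, 80.5% of the exon bases are shared with the gene model Gm49340, so its level is uncertain.

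Crossover genes showed no difference beyond their spread. MSH4 and MSH5 hold the recombining strands together, SHOC1 and the helicase HFM1 stabilise the intermediates, RNF212 and the ligase CCNB1IP1 select the sites, and MLH3 resolves them. Of the 7 genes 6 were tested, 3 on each side of 0 (1 above and 5 below under upper-quartile scaling), with log2 differences from -0.17 to 0.04. Hfm1, the most abundant, was at 3.66, 3.54 and 4.03 RPKM in the Control libraries against 2.51, 3.33 and 3.91 in the Middle ones. Msh4 was at 1.08, 1.15 and 1.03 against 0.977, 1.12 and 1.37 RPKM, and its partner Msh5, under the filter and not tested, at 0.816, 0.976 and 0.634 against 0.921, 0.904 and 0.853. Rnf212 was at 1.36, 1.33 and 1.14 RPKM in the Control libraries against 1.31, 1.04 and 1.35 in the Middle ones.

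Mlh3 was at 2.54 ± 0.0501 RPKM in the Control libraries against 2.61 ± 0.559 in the Middle ones, Ccnb1ip1 at 2.41 ± 0.0826 and 2.47 ± 0.669, and Shoc1 at 1.06 ± 0.0559 and 1.05 ± 0.233 (SD, n = 3 each). The SD of these 3 genes was larger in Middle than in Control. Mlh3 and Shoc1 were lowest of all 6 libraries in Middle replicate 1, and Ccnb1ip1 was lowest in Middle replicate 2. The groups overlapped for all 7 crossover genes. Of all genes tested 29.3% had no overlap, and 7 genes are too few to set the shares apart.

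MAJIN, TERB1 and TERB2 form the complex that fastens telomeres to the nuclear envelope. Terb1 was at 12.5, 11.3 and 12.1 RPKM in the Control libraries against 8.11, 11.6 and 11.4 in the Middle ones, with Middle replicate 1 alone far below and the other 2 Middle libraries inside the Control range. Its log2 difference of -0.20 (adjusted p = 0.369, limma) was -0.05 without Middle replicate 1. Majin was at 7.55, 7.84 and 8.01 RPKM in the Control libraries against 8.82, 7.79 and 7.09 in the Middle ones, and Terb2 at 1.10, 1.012 and 0.938 against 0.899, 1.07 and 1.37. Neither was separated between the groups.

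Middle replicate 1 was the lowest of the 6 libraries for 17 of the 33 tested genes, against 2 to 6 genes for each other library. It was the highest library for 5 genes. Many genes that were low in it had transcripts of low GC content (the share of G and C bases in the longest annotated transcript of GENCODE M21). Of the 16 tested genes with a GC content below the set's median of 43.9%, 12 lay below 0 in the comparison and 4 above, whereas of the other 17 genes 4 lay below and 13 above. Under upper-quartile scaling the counts were 14 below and 2 above among the first, and 6 below and 11 above among the others. This split was made after the values were seen. Among the genes of lower GC content the median deviation from the Control mean was -0.38 in Middle replicate 1, -0.10 in replicate 2 and -0.03 in replicate 3 on the log2 scale. Among the others it was 0.09, 0.02 and 0.09.

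**Figure D3:**
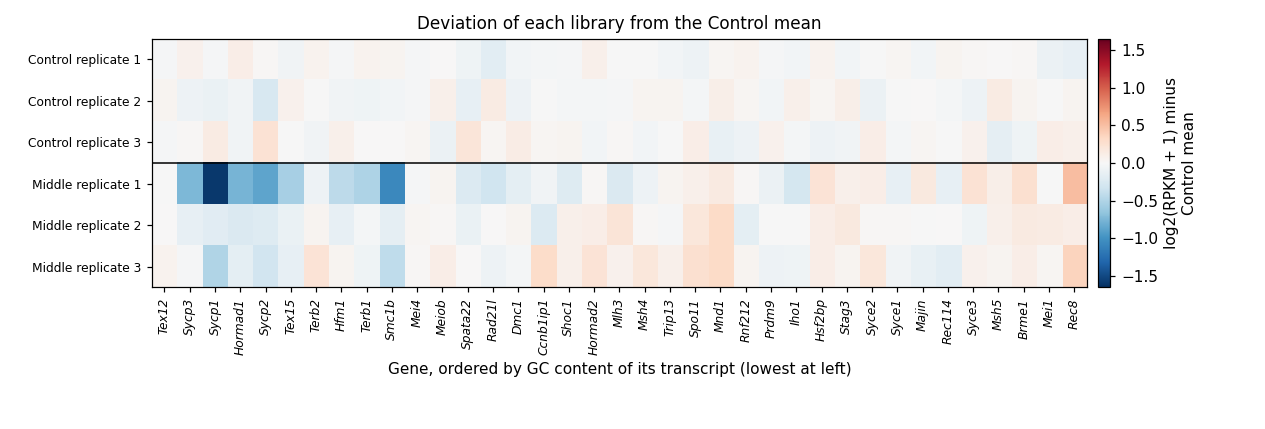
Deviation of each library from the Control mean on the log2(RPKM + 1) scale, with the 37 genes ordered by transcript GC content from left to right and Control libraries above the black line. The strong blue cells (Sycp1, Smc1b, Sycp2, Hormad1 and Sycp3) lie at the left, in the row of Middle replicate 1; Tex12, the gene of lowest GC content, is pale there.

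Across the 33 genes, GC content and the log2 difference correlated with Pearson's r = 0.67 and Spearman's rho = 0.63. Across 14226 of all genes tested the values were 0.32 and 0.35. Without Middle replicate 1 the values were 0.51 and 0.45 for the 33 genes and 0.18 and 0.20 for all genes. The genes share the same 6 libraries and are not independent, so these values only describe the set. Gene length gave a rho of -0.11 in place of GC content. The whole libraries also differed in this property. When each gene's mean over the 6 libraries was subtracted, the remainder correlated with GC content over all genes tested at a Spearman's rho of -0.29 to -0.22 in the Control libraries. In the Middle libraries rho was -0.07 to 0.45, highest in Middle replicate 1. The ranges of the groups do not overlap, so GC content and the group difference cannot be told apart.

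**Figure D4:**
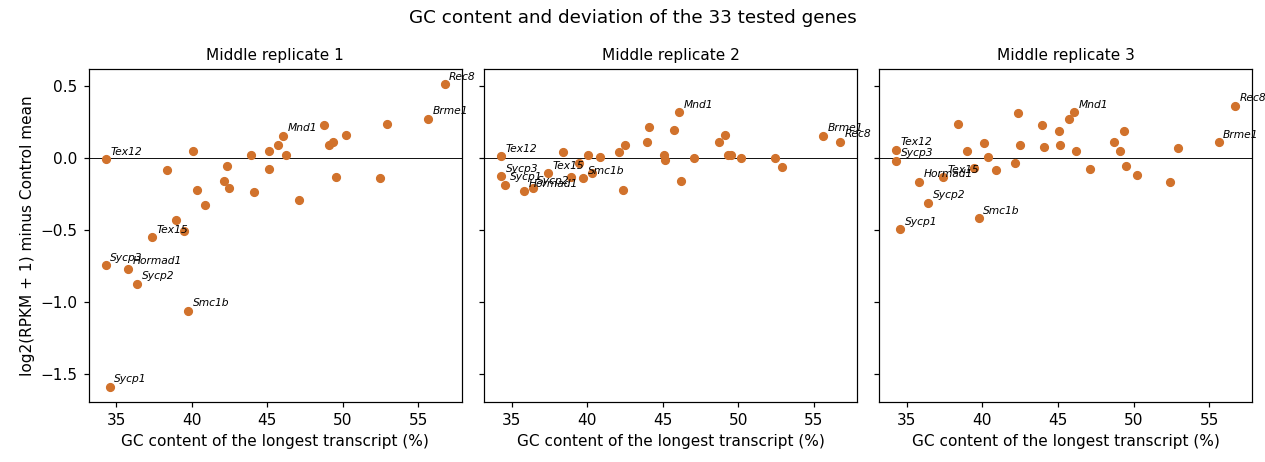
Transcript GC content in percent (x) against the deviation from the Control mean on the log2(RPKM + 1) scale (y) for the 33 tested genes, 1 panel per Middle library. Points climb from Sycp1 at lower left to Rec8 at upper right in replicate 1 (Pearson's r = 0.73) and lie flatter in replicates 2 (0.52) and 3 (0.41).

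Coding sequence shows how differently these genes are composed. For 3 genes of low and 2 of higher GC content, chosen after the values were seen, a stretch of 120 bases is printed whose GC content is the nearest to that of the whole coding sequence, 5′ to 3′, with G and C in capitals and positions counted from the A of the start codon of the longest coding transcript (GENCODE M21). Sycp1 is the poorest in capitals and Rec8 the richest, while Smc1b, Tex12 and Mnd1 lie between them and close together.
Sycp1, positions 1495 to 1614: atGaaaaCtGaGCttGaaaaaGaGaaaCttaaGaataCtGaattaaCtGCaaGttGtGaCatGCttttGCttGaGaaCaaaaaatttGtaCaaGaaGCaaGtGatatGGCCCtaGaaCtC
Smc1b, positions 1771 to 1890: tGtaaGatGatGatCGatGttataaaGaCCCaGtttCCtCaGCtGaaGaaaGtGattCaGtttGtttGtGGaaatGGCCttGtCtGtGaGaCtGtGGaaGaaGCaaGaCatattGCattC
Tex12, positions 100 to 219: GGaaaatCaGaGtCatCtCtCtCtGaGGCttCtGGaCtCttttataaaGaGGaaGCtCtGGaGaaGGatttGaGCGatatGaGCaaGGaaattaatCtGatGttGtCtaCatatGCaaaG
Mnd1, positions 316 to 435: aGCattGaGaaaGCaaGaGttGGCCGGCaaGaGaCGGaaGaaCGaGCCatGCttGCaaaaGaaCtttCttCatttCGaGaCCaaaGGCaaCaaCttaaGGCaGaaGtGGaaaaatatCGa
Rec8, positions 973 to 1092: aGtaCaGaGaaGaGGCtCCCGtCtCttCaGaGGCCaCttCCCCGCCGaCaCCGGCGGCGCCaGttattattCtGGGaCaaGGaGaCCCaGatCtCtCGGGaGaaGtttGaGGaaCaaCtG
The stretch of Sycp1 holds 41 G or C among its 120 bases, those of Smc1b and Tex12 48 each, that of Mnd1 53 and that of Rec8 68. Over the whole transcript the GC content was 34.6% for Sycp1, 39.8% for Smc1b, 34.3% for Tex12, 46.1% for Mnd1 and 56.7% for Rec8. By whole transcript Tex12 had the lowest GC content of the 37 genes, and its groups overlapped. Its coding sequence alone was at 40.1%, above Sycp1 at 34.5% and Smc1b at 39.6%. Low GC content of the transcript thus did not go with a low value in every gene.

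With each library's trend on GC content removed, 0 of the 33 genes passed the test, against 0.0703% of all genes, and 6 had an unadjusted p under 0.05, against 20.5% (limma). The log2 differences of the 4 lower genes were then -0.59 for Sycp1, -0.44 for Smc1b, -0.24 for Hormad1 and -0.13 for Tex15. Those of the higher ones were 0.24 for Rec8, 0.28 for Mnd1, 0.15 for Hsf2bp and 0.10 for Brme1. With Middle replicate 1 left out as well, Sycp1 was at -0.25, Smc1b at -0.24, Hormad1 at -0.12 and Tex15 at -0.06. Rec8 was then at 0.19, Brme1 at 0.088, Hsf2bp at 0.11 and Mnd1 at 0.31. All 8 genes kept their direction with both changes, and 7 of them, all but Mnd1, came nearer to 0. The 8 were picked for separate ranges, so leaving out a library could not by itself turn their direction. In the same 7 genes Middle replicate 1 was the Middle library farthest from Control, so leaving it out by itself brings them nearer to 0.

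**Figure D5:**
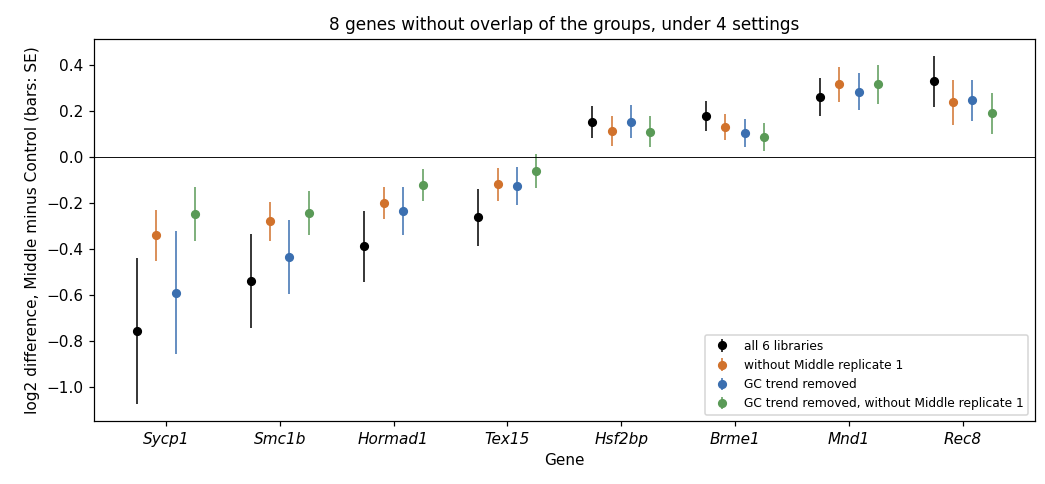
Log2 difference (Middle minus Control) with its SE for the 8 genes whose groups do not overlap, with all libraries (black), without Middle replicate 1 (orange), with the GC trend removed (blue) and with both changes (green). The 4 genes at the left move toward 0 under the alternatives, Sycp1 from -0.76 to -0.25, and at the right Rec8 moves from 0.33 to 0.19 and Mnd1 from 0.26 to 0.31.

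The stretches before the start sites were searched for letters that are known to be bound by regulators of germline genes. Of the 37 genes 31 had an entry in the RefSeq table of promoters (build GRCm38.p6), and the 250 bases before each annotated start were searched on both strands. The E2F letters TTCCCGC, which E2F factors bind and through which germline genes are kept silent in other tissues, stood before 9 of the 31 genes (29%), against 4.38% of 27025 genes in the table. The E-box CACGTG stood before 7 genes (22.6% against 6.86%), and CGCATGCG, the core of the site bound by NRF1, before 5 (16.1% against 1.75%). The letters CNCCTCAG, bound by STRA8 and MEIOSIN at entry into meiosis, also stood before 5 genes, which is 16.1% against 7.39%. The cAMP response element TGACGTCA stood before 0 of 31, against 1.77%. Among the 17492 protein-coding genes of that table the shares were higher, at 5.69% for the E2F letters, 7.61% for the E-box and 2.32% for NRF1. They were 7.83% for the letters of STRA8 and MEIOSIN and 2.2% for the cAMP response element. Matches of 2 motifs overlap before Syce2 and Prdm9, where the E2F letters share bases with those of STRA8 and MEIOSIN. A match is only a description of the sequence.

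Genes with a given motif lay on both sides of 0. Of the 5 genes with the NRF1 letters all were tested, 1 lay above 0 and 4 below, and of the 7 with an E-box 3 lay above and 4 below. Of the 9 genes with the E2F letters 7 were tested, 3 lay above 0 and 4 below, and Tex12, one of the 3 above, lay below under upper-quartile scaling. The groups did not overlap for 3 of these 7, beside 29.3% of all genes tested, too few genes to set the shares apart. These 3 were Hormad1 and Smc1b, lower in Middle, and Hsf2bp, higher in Middle. Their 250 bases before the start are printed 5′ to 3′ along the gene, from RefSeq (GRCm38.p6), with every match to the motifs above in capitals.
Hormad1, chr3:95559427-95559676, plus strand: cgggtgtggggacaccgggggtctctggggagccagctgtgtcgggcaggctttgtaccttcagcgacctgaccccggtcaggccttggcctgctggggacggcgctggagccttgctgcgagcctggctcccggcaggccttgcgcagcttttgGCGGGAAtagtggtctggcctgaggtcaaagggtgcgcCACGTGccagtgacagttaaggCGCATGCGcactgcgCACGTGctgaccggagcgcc
Smc1b, chr15:85131958-85132207, minus strand: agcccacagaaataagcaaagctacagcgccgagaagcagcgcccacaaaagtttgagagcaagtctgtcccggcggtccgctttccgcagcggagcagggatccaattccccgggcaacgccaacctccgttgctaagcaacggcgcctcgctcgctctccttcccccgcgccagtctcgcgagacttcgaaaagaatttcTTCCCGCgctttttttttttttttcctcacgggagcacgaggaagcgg
Hsf2bp, chr17:32034509-32034758, minus strand: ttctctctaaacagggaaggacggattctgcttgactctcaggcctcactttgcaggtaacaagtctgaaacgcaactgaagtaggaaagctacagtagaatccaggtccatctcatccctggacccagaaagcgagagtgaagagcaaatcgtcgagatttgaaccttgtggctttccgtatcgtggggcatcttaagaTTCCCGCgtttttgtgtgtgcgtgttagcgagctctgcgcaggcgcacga
The E2F letters begin 95 bases before the start in Hormad1, read on the opposite strand, 48 in Smc1b and 50 in Hsf2bp. Hormad1 also holds 2 E-boxes and the NRF1 letters within 57 bases of its start. A second annotated start of Hormad1 lies close by and is not printed.

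Other genes of meiosis and repair were taken as whole lists. Of 10 mitotic cohesin genes and regulators all were tested, 0 passed, and 3 lay above 0. Rad21, the mitotic kleisin, was at 39.6 ± 0.732 RPKM in the Control libraries against 46.9 ± 3.91 in the Middle ones, and Stag2 at 4.47 ± 0.136 and 3.53 ± 0.711 (SD, n = 3 each). Of 20 further recombination and synapsis genes 16 had a row, 11 were tested and 0 passed, with 6 above 0. Meikin, which protects centromeric cohesin in the first division, was at 22.7 ± 0.700 and 27.3 ± 1.55 RPKM, and Rad51ap2 at 1.75 ± 0.152 and 1.19 ± 0.201 (SD, n = 3 each). Meikin lay higher and Rad51ap2 lower in every Middle library (adjusted p = 0.178 each, limma).

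Repair genes that somatic cells share lay mostly above 0, at 13 of 18 tested out of 21, and 0 passed. Their median difference was 0.07. Rpa2, a subunit of the single-strand binding protein, was at 4.41 ± 0.501 RPKM in the Control libraries against 6.09 ± 0.939 in the Middle ones, and Rad54l at 1.91 ± 0.114 and 2.31 ± 0.0700 (SD, n = 3 each; adjusted p = 0.178 and 0.210, limma). Of the 11 genes of meiotic chromatin silencing 8 were tested, 7 lay above 0 and 0 passed. H2ax, the histone phosphorylated over the sex chromosomes, was at 28.9 ± 2.09 and 38.8 ± 3.16 RPKM, and the kinase gene Atr at 7.29 ± 0.262 and 8.24 ± 0.717 (SD, n = 3 each; adjusted p = 0.177 and 0.282, limma). Of the 6 meiotic entry genes 2 lay above 0 and 0 passed. Stra8, which drives entry into meiosis, was at 7.64, 8.36 and 8.46 RPKM in the Control libraries against 12.1, 9.17 and 10.4 in the Middle ones, higher without overlap (adjusted p = 0.178, limma), and the RNA-binding regulator gene Dazl at 5.37 ± 0.101 and 4.59 ± 0.611 (SD, n = 3 each).

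No marker of a cell type in the tissue passed the test (0 called in each list, smallest adjusted p = 0.177, limma), and 8412 of all 15040 genes tested lay above 0. Summed RPKM of 12 markers of pachytene and later spermatocytes ranged from 1629 to 1681 in Control and 1532 to 1655 in Middle, which overlap. The sums of 12 round spermatid markers were 496 to 536 and 459 to 477, and those of 12 spermatogonium markers 34.6 to 41.2 and 41.4 to 51.4. Of the 12 spermatocyte markers 6 lay above 0 and 6 below. The groups did not overlap for 4 of them (33.3%, against 29.3% of all genes tested). All 4 lay higher in Middle, the direction of 17.9% of all genes. All 6 tested spermatogonium markers and all 10 tested Sertoli cell markers lay above 0. Of the round spermatid markers 9 of the 12 lay below, and of the elongating spermatid markers 10 of the 12. The sums of 12 Sertoli cell markers were 288 to 296 in Control and 308 to 339 in Middle. The sums overlapped for markers of elongating spermatids, Leydig cells (6 of 9 above 0), peritubular myoid cells (7 of 8) and macrophages (4 of 6). Ribosomal protein and mitochondrially encoded genes lay above 0 for 20 of 20 and 8 of 9 tested genes, with median log2 differences of 0.28 and 0.45. Whether RNA quality had a part in this was not tested. The remaining tested mitochondrial gene, mt-Nd3, fell from 115 ± 5.01 to 51.5 ± 9.49 RPKM (SD, n = 3 each), a log2 difference of -1.16 (adjusted p = 0.0267, limma). All 9 tested ones had an unadjusted p under 0.05 (limma). The other 4 of the 13 listed mitochondrially encoded genes were under the filter and not tested. The part of these shifts in the values of the meiotic genes was not tested. Germ cell and somatic markers of testis were measured in every library, while 4 markers of the epididymis summed to 0.092 RPKM at most. The Sertoli markers Amh and Fshr and the spermatogonium markers Zbtb16, Gfra1, Nanos3 and Sall4 were under 0.5 RPKM in every Control library.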

How the data were processed

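The deposited RPKM values of 6 testis libraries were analysed, 1 column per library. Extraction used Trizol and an mRNA library kit, per the labels' protocols. Reads had been trimmed by fastp 0.23.0 and the build was GRCm39, per the submitters' processing notes, while the sources used here name no aligner, counter or counting setting. RPKM had been computed by the authors from the gene length of the deposited table, and multiplied by that length every value was a whole multiple of 1 step per library (tolerance 0.001), which gave back the reads. Libraries were grouped by title. Pairs of libraries within a group differed by more than sampling noise. Chi-square over its degrees of freedom was 19.2 and 13.6 for the pairs with Middle replicate 1. For the other pairs it was 3.39 to 6.02. Each library was treated as 1 replicate, although separate mice are not stated.

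Genes reaching a mean of 1 RPKM in either group were kept, transformed to log2(RPKM + 1) and compared with limma 3.58.1 in R 4.3.3 (trend in the prior variance, two-sided, Benjamini-Hochberg over 15040 genes, threshold 0.05). The code was checked on simulated data. Alternatives were 2 other scalings, no filter, limma-voom on the reads (genes with 10 or more in 3 libraries), a filter of 5 RPKM, pseudocounts of 0.1 and 0.01, a replicate block, each library left out, and removal of each library's loess trend on GC content (span 0.5; 94.6% of tested genes had a value). The set of 37 genes, the lists and the rules were chosen with earlier results of these data known, so no list was tested as a whole. Within each function the genes with the smallest p (up to 3), the most and least abundant, and those under the filter are given per library. The letters of the promoter motifs were chosen after the values were seen. Sequences came from GENCODE M21 and RefSeq (GRCm38) by symbol or synonym; none of their coordinates were mixed with those of the table. Precision is limited by 3 libraries per group; interval bounds cover the spread between libraries.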

Additional observations from a re-analysis of the deposited data

How the results depend on the processing

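None of the genes of this set passed under any of the 16 alternatives, and 21 of the 33 tested genes kept their direction in each alternative that tested them. The filter of 5 RPKM tested 18 of the genes, and Rad21l was tested in 4 of the 6 fits with 1 library left out. Over all genes the count called was 8. It was 0 without a filter, and 0 to 3 with 1 library left out (3 without Control replicate 1, 1 without Middle replicate 1, 0 without any other). The set's median of 0.011 ranged from -0.055 (without Middle replicate 3) to 0.019 with 1 library left out. The titles do not say whether equal replicate numbers mark pairs. Deviations of same-numbered libraries from their group means correlated at -0.15, -0.12 and 0.0054, and those of differently numbered ones at -0.091 to 0.16. Such deviations sum to 0 over the 3 libraries of a group, so these values cannot decide it. With the replicate block 0 genes were called, over all genes and in this set (limma). There 6 of the 33 had an unadjusted p under 0.05 (limma). Directions turned in at least 1 alternative for 12 genes, and the cause was not tested. By median-of-ratios scaling Ccnb1ip1 was at -0.0021 and Majin at -0.0043. By upper-quartile scaling Mlh3 was at -0.00014, Ccnb1ip1 at -0.0062, Majin at -0.0091 and Tex12 at -0.0043. With the GC trend removed Dmc1 was at 0.014, Majin at -0.0087 and Shoc1 at 0.050. With the GC trend removed and Middle replicate 1 left out, Sycp3 was at 0.023, Dmc1 at 0.020, Syce3 at -0.031, Majin at -0.075, Shoc1 at 0.10 and Hfm1 at 0.0031. With 1 library left out, Ccnb1ip1 ranged from -0.14 to 0.13, Majin from -0.061 to 0.078, Dmc1 from -0.10 to 0.0098, Shoc1 from -0.062 to 0.086, Mlh3 from -0.080 to 0.14, Rnf212 from -0.073 to 0.035, Terb2 from -0.022 to 0.14 and Msh4 from -0.028 to 0.10. Depth limits Mei4 to 2 to 10 reads per library.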

Other observations

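Partners that act together in meiosis were far apart in level within the same libraries, per length of gene. Psmc3ip, whose product works as a pair with MND1, was at 224 ± 5.10 RPKM in the Control libraries against 238 ± 11.8 in the Middle ones, while Mnd1 was at 11.8 ± 0.992 and 14.3 ± 0.963 (SD, n = 3 each). Syce1 ranked 84th of 38715 genes by mean RPKM, and Sycp1, the filament protein it binds, ranked 3316th. The ratio of Syce1 to Sycp1 was 22.1 to 26.9 in the Control libraries and 74.5, 28.9 and 34.4 in Middle replicates 1 to 3. Kash5, whose product links the telomere complex to the motor dynein, was at 92.8 ± 4.16 and 108 ± 15.8 RPKM (SD, n = 3 each), many times the level of Terb1 and Majin. Sun1, the inner membrane partner of KASH5, was at 8.94 ± 0.276 and 9.04 ± 0.0872 RPKM (SD, n = 3 each).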
